A study of Mus musculus with 4 samples.

Results

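The cytoplasmic ribosomal protein genes of the mouse were taken by symbol from the protein-coding genes of RefSeq. The gene table was that of the GRCm38.p6 assembly, which is the assembly called mm10. A symbol counted if it was Rpl or Rps followed by a number, with an optional a, x or l and optional digits, and nothing more. The rule gave 80 of 21887 protein-coding genes, 49 for proteins of the large subunit and 31 for proteins of the small subunit. Among them were 7 paralogues with symbols of their own, Rpl3l, Rpl7l1, Rpl10l, Rpl22l1, Rpl32l, Rpl39l and Rps27l. The acidic stalk proteins and Rpsa fall outside the symbol rule and are given at the end. The genes lay on 19 chromosomes, with 13 on chromosome 7 and 4 on X. They were short, with a median length of 3169 bp (592 to 11774) against 17169 bp over all protein-coding genes.

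The study mapped CTCF, the zinc-finger factor best known for holding chromosome loops in place, by chromatin immunoprecipitation and sequencing in the brain of mouse embryos at day 13.5. There were 4 samples. A CTCF library and an input came from the telencephalon, the front part of the embryonic forebrain. The same pair came from the medial ganglionic eminence, or MGE. The MGE is the ventral zone of the telencephalon in which many cortical interneurons are born, so the 2 tissues are not separate regions. The 2 deposited CTCF peak lists were analysed. No strain, genotype or treatment was given for any sample. The inputs carried no antibody and were not analysed here. Chromatin had been sonicated to about 500 bp and immunoprecipitated with a rabbit anti-CTCF antibody. The telencephalon libraries were made with the NEB ChIP-Seq kit and the MGE libraries with the NEBNext Ultra II kit, so tissue and library kit cannot be told apart. The protocol text of all 4 samples describes a dissection of MGE, and the header of the telencephalon list carries a name beginning with e14. The labelled tissues could not be checked against marker genes, because peak positions hold no expression. With 1 library per tissue there was no replicate, no test was made between tissues, and the read depth is unknown. The telencephalon list held 31886 peaks on the standard chromosomes, with a median width of 276 bp (150 to 1744), and the MGE list 25625, with a median width of 300 bp (244 to 1348). In the MGE list 7399 peaks had exactly the smallest width.

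Ribosomal proteins join ribosomal RNA to build the ribosome, and every cell needs nearly all of them in matched amounts. Growing tissues such as the embryonic brain make them in bulk, and many of their introns carry small nucleolar RNAs (snoRNAs) that guide modification of ribosomal RNA. Their mRNAs typically start at a C within a run of pyrimidines, the terminal oligopyrimidine (TOP) tract, through which mTOR signalling controls their translation. Promoters of these genes are known for letters read by YY1, by ETS factors such as GABPA, and by SP factors. CTCF recognises a long DNA motif with several of its zinc fingers.

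The sequences below show the CTCF core letters in promoters of ribosomal protein genes. Promoter windows of 300 bases, 250 before and 50 after a start, were read from RefSeq for 61 of the 80 genes, with 73 windows in all because 10 genes had several starts. The other 19 genes include Rpl21, Rpl3, Rps14, Rps29, Rps20, Rpl8, Rpl36, Rpl7, Rpl30, Rpl32, Rpl23a, Rps27a, Rpl29 and Rpl17. Both strands were searched for a strict core, which reads CC, any 3 bases and AGGGGGC, and for a relaxed core, which reads CC, any 3 bases, AG, any 2 bases and GGC. Every strict match is also a relaxed match. The strict core was found in 2 of 73 windows (2.74%; 1.62% of all 21263 protein-coding windows) and the relaxed core in 7 (9.59%; 9.88% of all windows). All 7 relaxed matches are shown with 20 bases on either side, each read 5′ to 3′ on the strand of the gene. Capitals mark the 12 bases of the match, which read in reverse complement for Rpl37 and Rpl7a.
Rpl5 (strict; chr5:107900465-107900476, + strand; under a peak in both lists): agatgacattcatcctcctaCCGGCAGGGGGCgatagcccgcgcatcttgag
Rpl37 (strict; chr15:5116491-5116502, + strand; under a peak in both lists): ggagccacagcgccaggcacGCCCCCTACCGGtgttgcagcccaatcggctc
Rpl38 (relaxed; chr11:114668458-114668469, + strand; under a peak in both lists): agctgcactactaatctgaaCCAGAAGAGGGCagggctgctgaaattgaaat
Rps4x (relaxed; chrX:102189436-102189447, − strand; under a telencephalon peak): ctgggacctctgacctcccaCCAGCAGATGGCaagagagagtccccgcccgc
Rps15a (relaxed; chr7:118116290-118116301, − strand; under a telencephalon peak): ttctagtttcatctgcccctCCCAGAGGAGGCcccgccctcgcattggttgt
Rpl7a (relaxed; chr2:26910598-26910609, + strand; under no peak): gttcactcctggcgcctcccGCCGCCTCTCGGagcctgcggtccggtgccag
Rpl27a (relaxed; chr7:109519115-109519126, + strand; under no peak): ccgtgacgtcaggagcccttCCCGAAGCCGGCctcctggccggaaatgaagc

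In Rpl5, which with Rpl11 and the 5S ribosomal RNA forms a particle that can bind MDM2, the match lay at −7 bp from the MGE peak midpoint and at 57 bp from the telencephalon midpoint. In Rps4x, an X-linked gene of the small subunit, the match lay at −11 bp from the midpoint of a peak found in the telencephalon list alone. Distances of matches from midpoints follow genome coordinates, so on the − strand a negative value lies past the midpoint along the gene. The match of Rpl38 lay farther out, 243 and 113 bp from the telencephalon and MGE midpoints. That of Rpl37 lay at 62 and 114 bp from them, and that of Rps15a at −114 bp from its telencephalon midpoint. Split by peaks, the relaxed core was present in 3 of 10 windows of these genes with a peak in both lists, in 2 of 8 with a telencephalon peak alone, and in 2 of 55 with none. The same shares over all protein-coding windows were 43.9%, 23.1% and 7.73%. So 7 of 10 windows under peaks of both lists held no relaxed core. Letting 1 fixed letter of the strict core differ, a search added after the first counts were seen, gave 4 of 10, 3 of 8 and 4 of 55 windows, against 62.1%, 38.3% and 14.2% of all windows. No match says only that these letters are not in the window, and a peak can reach past it.

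Stretches before the start of Rpl11, Rpl36a and Rps3a1 are shown as examples of promoters covered by peaks of both lists that held no relaxed core. They read on the strand of the gene, 5′ to 3′, and end at the base before the start. The capitals in Rps3a1 mark the ETS letters CCGGAAG.
Rpl11 (chr4:136053394-136053643, − strand): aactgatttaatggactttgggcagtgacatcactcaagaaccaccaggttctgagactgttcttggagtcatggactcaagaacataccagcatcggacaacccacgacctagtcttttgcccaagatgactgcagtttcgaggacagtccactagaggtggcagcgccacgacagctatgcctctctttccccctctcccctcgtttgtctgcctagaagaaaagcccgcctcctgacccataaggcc
Rpl36a (chrX:134585476-134585653, + strand): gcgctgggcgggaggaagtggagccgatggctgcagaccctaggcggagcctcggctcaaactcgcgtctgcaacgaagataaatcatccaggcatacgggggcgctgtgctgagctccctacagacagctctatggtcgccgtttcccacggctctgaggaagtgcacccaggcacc
Rps3a1 (chr3:86142669-86142891, − strand): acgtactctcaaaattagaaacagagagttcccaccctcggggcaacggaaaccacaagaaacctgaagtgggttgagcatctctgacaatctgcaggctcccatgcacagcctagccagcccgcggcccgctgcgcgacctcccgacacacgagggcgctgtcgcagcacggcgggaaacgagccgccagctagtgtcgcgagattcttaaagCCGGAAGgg

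Peaks within 1 kb of either gene end, called gene-end peaks here, were found in the telencephalon list at 36 of 80 genes (45.0%, exact Clopper-Pearson 95% interval 33.8 to 56.5). The share was 19.3% over all protein-coding genes. In the MGE list 20 of 80 genes had one (25.0%, 16.0 to 35.9), against 12.1% of all genes. The intervals treat genes as independent and cover counting error only. Among the 8797 protein-coding genes no longer than the longest ribosomal protein gene, the shares were 16.3% and 10.8%. Gene-end peaks of both lists were found at 19 genes (23.8%; 10.5% of all genes), and the telencephalon list without the MGE list at 17 (21.2%; 8.79%). The MGE list without the telencephalon list had one at 1 gene, the paralogue Rpl32l (1.25%; 1.58%). At 43 genes neither list had one (53.8%; 79.1%). Since the telencephalon list is longer and a missing peak may lie below the calling limit, the 17 genes are a difference between lists and were not tested between tissues. With the telencephalon list reduced to its widest peaks, as many as the MGE list has, 34 of 80 genes (42.5%) kept such a peak, against 16.8% of all genes.

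**Figure D1:**
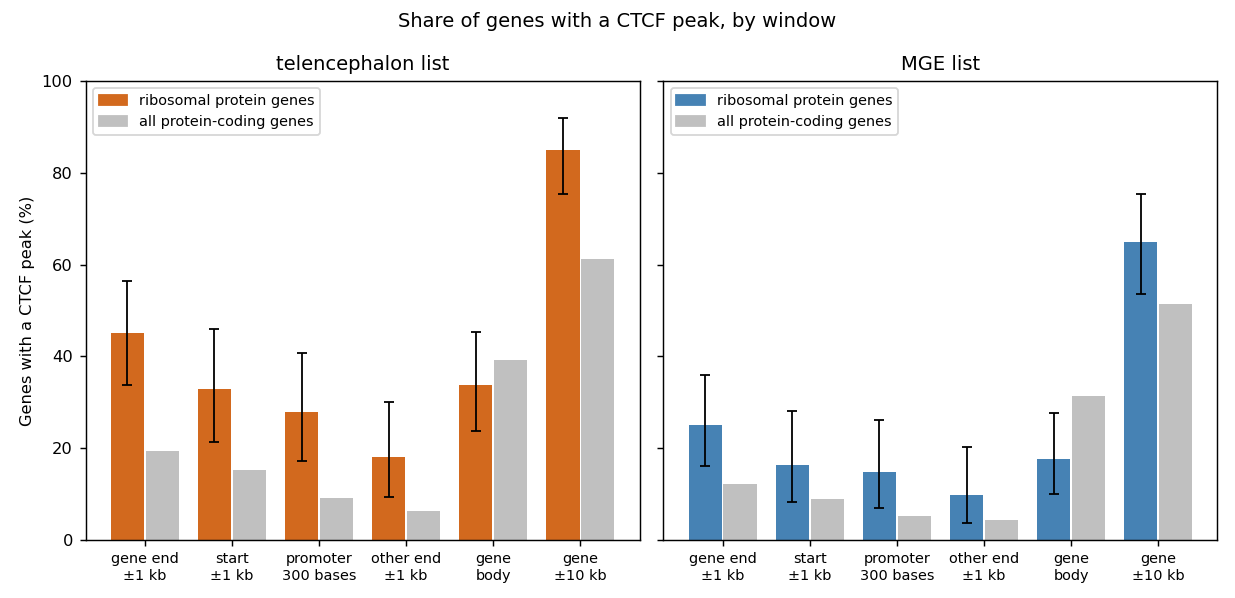
Bars give the percent of genes with a CTCF peak in each window (x axis), for ribosomal protein genes (coloured, with exact 95% intervals) and all protein-coding genes (grey), in the telencephalon list (left) and the MGE list (right). Start, promoter and other-end windows use the 61 genes with a start in RefSeq, and the other windows use all 80. The coloured bar is taller in each window except the gene body, where it is shorter in both lists; all protein-coding genes include many longer ones.

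Over a wider window, 68 of 80 genes (85.0%, 75.3 to 92.0) had a telencephalon peak in the gene or within 10 kb, and 52 (65.0%, 53.5 to 75.3) an MGE peak. Over all protein-coding genes the shares were 61.3% and 51.3%. Inside the gene body the counts were 27 of 80 (33.8%) and 14 of 80 (17.5%), below the 39.1% and 31.4% of all genes, which are longer. Among genes no longer than the longest member of the family, the gene body shares were 15.8% and 10.8%, below those of the family, and the 10 kb shares were 45.3% and 35.9%. Of the family, 50 genes had peaks of both lists within 10 kb (62.5%; 45.9% of all genes) and 18 of the telencephalon list alone (22.5%; 15.4%). Peaks of the MGE list alone were found at 2, Rpl32l and Rps12 (2.50%; 5.44%), and of neither list at 10 (12.5%; 33.3%). The median gap from a gene to its nearest peak was 1257 bp in the telencephalon list and 5493 bp in the MGE list. Some peaks within 10 kb were nearer to an end of another protein-coding gene than to the family's gene. They were 13 of 115 peaks in the telencephalon list and 12 of 69 in the MGE list.

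Peaks at the starts lay mostly upstream. Of the 61 genes with a start, 20 had a telencephalon peak within 1 kb of it (32.8%, 21.3 to 46.0; 15.2% of the 17492 protein-coding genes with a start). The MGE list had a start peak at 10 (16.4%, 8.15 to 28.1; 8.93%), and each of those 10 also had one in the telencephalon list. Over all genes with a start, 7.79% had a start peak in both lists, 7.46% in the telencephalon list alone and 1.14% in the MGE list alone. The 10 genes were Rpl5, Rpl10a, Rpl11, Rpl13a, Rpl26, Rpl36a, Rpl37, Rpl38, Rps3a1 and Rps19. The telencephalon list alone had a start peak at the other 10, Rpl7l1, Rpl10, Rpl15, Rpl27, Rpl34, Rps4x, Rps9, Rps15, Rps15a and Rps26. Midpoints of 18 of 22 telencephalon start peaks (81.8%; 67.2% over all genes) and 9 of 11 MGE start peaks (81.8%; 68.2%) lay before the start. The median midpoint was at −116 bp from the start in the telencephalon list and at −101 bp in the MGE list, against −107 and −99 bp over all genes. In the 500 bp before the start, 16 of 61 genes had a telencephalon midpoint (26.2%; 7.27% of all genes) and 8 an MGE midpoint (13.1%; 4.07%). Within 1 kb of the other end, 11 genes had a telencephalon peak (18.0%; 6.35%) and 6 an MGE peak (9.84%; 4.38%).

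**Figure D2:**
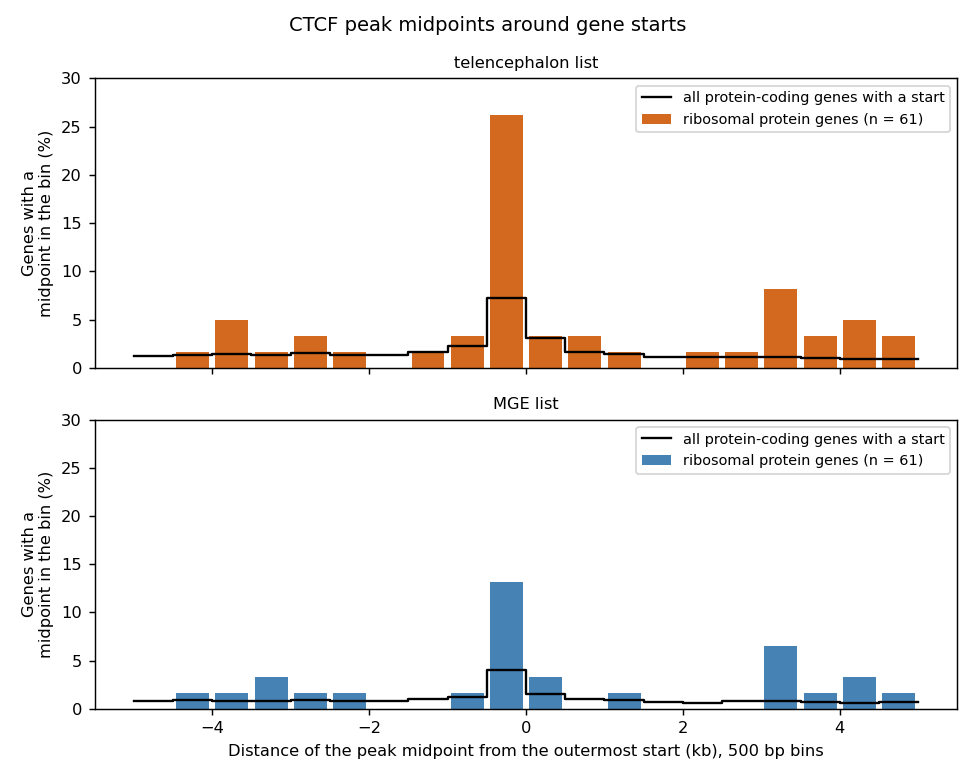
Bars give the percent of the 61 ribosomal protein genes with a start that have a peak midpoint in each 500 bp bin, by distance from the outermost start in kb along the direction of transcription, for the telencephalon (top) and MGE (bottom) lists. The black line is the same share over all protein-coding genes with a start. The highest bar is the bin just before the start in both lists, 26.2% and 13.1% of the genes.

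**Figure D3:**
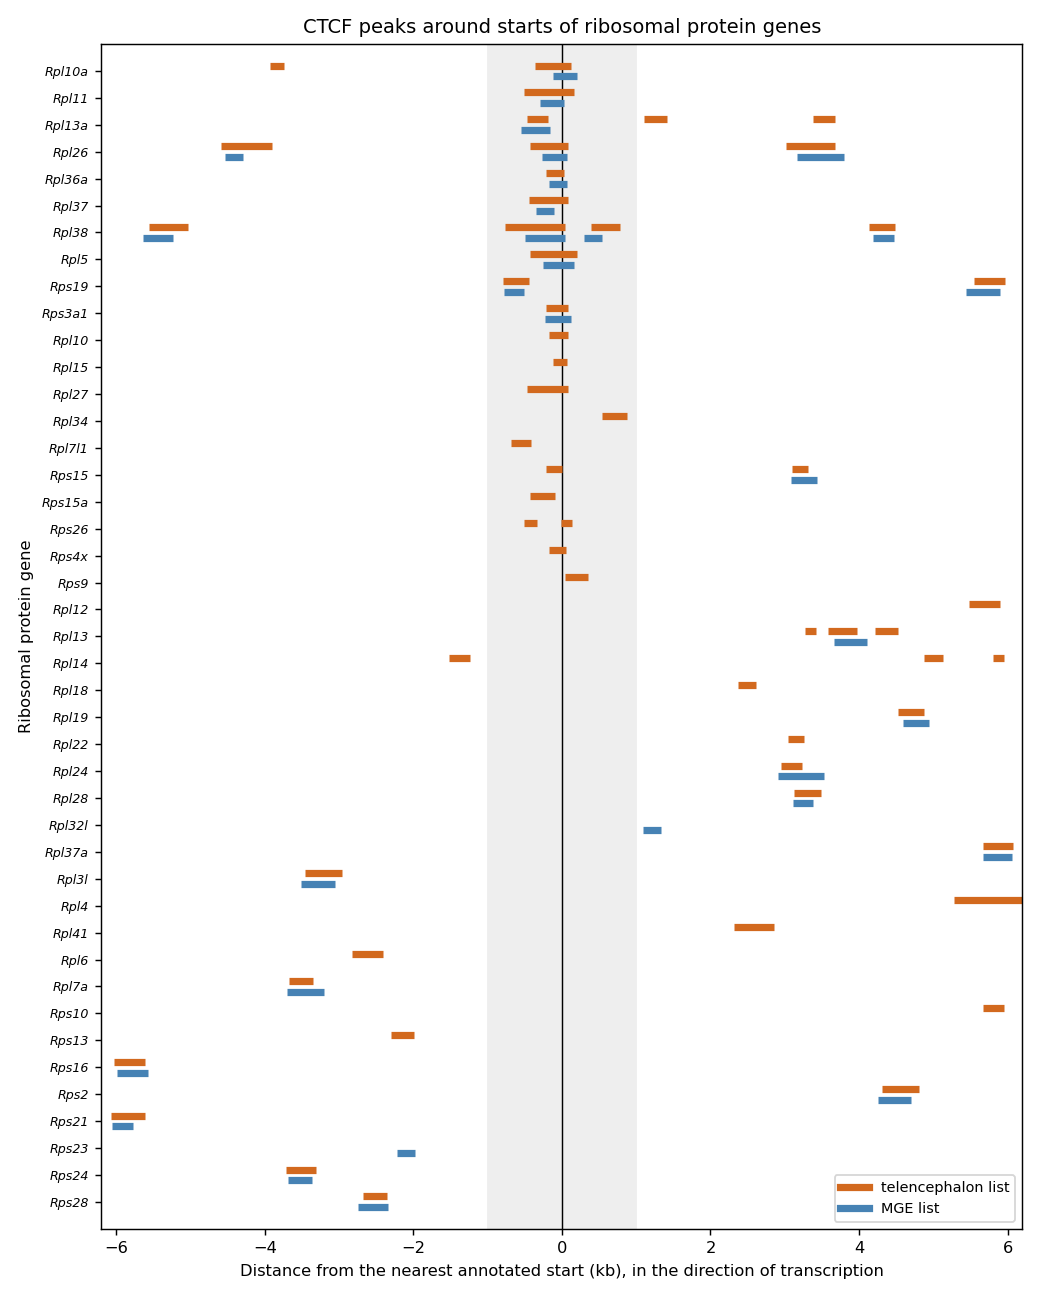
Each line is a ribosomal protein gene with a start in RefSeq and a peak midpoint within 6 kb of it. Horizontal bars are peaks drawn to their width, orange for the telencephalon list and blue for the MGE list, by distance in kb from the nearest start along the direction of transcription. Grey marks 1 kb on either side of the start. The 10 genes at the top have start peaks in both lists and the next 10 in the telencephalon list alone.

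In the large subunit, gene ends carried a telencephalon peak at 23 of 49 genes and an MGE peak at 14 of 49. For the small subunit the counts were 13 of 31 and 6 of 31. The gene-end shares of all protein-coding genes were 19.3% and 12.1%. Peaks over the promoter window were found at 11 of 38 large subunit genes in the telencephalon list and 8 of 38 in the MGE list, against 6 of 23 and 1 of 23 small subunit genes. Over all protein-coding genes with a start, 9.17% and 5.23% had a peak over that window. The 1 small subunit gene with a promoter peak in the MGE list was Rps3a1. The exact intervals of the 2 MGE shares, 9.55 to 37.3% and 0.110 to 21.9%, overlapped.

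In the large subunit, Rpl5 and Rpl11 make up the protein part of the 5S particle. Rpl5 had a telencephalon peak of 626 bp at chr5:107900102-107900727 and an MGE peak of 417 bp at chr5:107900270-107900686, both over its start. Rpl11 had a telencephalon peak of 664 bp and an MGE peak of 321 bp at chr4:136053368-136053688. Their midpoints lay at −173 and −135 bp from the start, and the midpoints of the 2 lists were 38 bp apart. So both genes of this pair had a start peak in both lists.

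Rpl38, known from the tail-short mouse and from the translation of Hox mRNAs, had the most peaks of the family. Each list gave it 5 peaks up to 10 kb away, and every one had a partner in the other list. The peak over its start was 809 bp wide in the telencephalon list (chr11:114667817-114668625) and 544 bp in the MGE list (chr11:114668080-114668623). Of the telencephalon peaks shared with the MGE list at a gene end of this family, it was the widest. Another pair of peaks, 357 and 277 bp wide, lay 380 and 435 bp past the other end. Of the other peaks in each list, 1 lay inside the gene and was also within 1 kb of the start. Its midpoint was 581 bp past the start in the telencephalon list and 414 bp in the MGE list. The other 2 lay before the gene, with gaps of 4271 and 9592 bp in the telencephalon list and 4480 and 9658 bp in the MGE list.

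Rpl3, whose protein lies near the peptidyl transferase centre and which hosts 3 snoRNA genes, had 4 telencephalon and 3 MGE peaks within 10 kb. Its gene-end peaks were 590 and 381 bp wide. Rpl13 had 4 and 2 peaks, with telencephalon gene-end peaks of 150 and 390 bp and an MGE peak of 442 bp, all past its other end. Rpl13a, Rpl26 and Rps14 also had 6 peaks over both lists, the same number as Rpl13, which was named by the order of symbols.

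Rpl26, which binds the p53 mRNA, had peaks at both gene ends in both lists. At its start the peaks were 505 bp (telencephalon) and 342 bp (MGE) wide, and at its other end 659 and 638 bp. Separate peaks at both ends were found at 8 of the 80 genes in the telencephalon list and 5 in the MGE list. The same share over all protein-coding genes was not computed, so these counts are not read as a trait of the family.

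Rpl36 had peaks of 332 and 413 bp in the telencephalon list and of 350 and 539 bp in the MGE list. The first of each pair lay nearer to an end of Micos13 than to Rpl36. Rpl37 had a start peak of 532 bp in the telencephalon list, and its MGE peak had the smallest width of that list, 244 bp, and was nearer to an end of Card6. Rpl36a, on X, was covered at its start by peaks of 236 and 244 bp, so its MGE peak too was at the smallest width. Rpl10a had start peaks of 480 and 316 bp whose midpoints were 156 bp apart. Rpl13a had start peaks of 289 and 388 bp, with midpoints at −332 and −352 bp from the start. Rpl22 had gene-end peaks of 341 and 459 bp inside the gene, 791 and 712 bp from its other end, and a further telencephalon peak of 209 bp inside.

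Both lists had gene-end peaks at 6 genes of the small subunit. Rps3a1 was covered at its start by peaks of 293 and 351 bp. Rps19, the first gene found mutated in Diamond-Blackfan anaemia, had telencephalon peaks of 355 and 410 bp and MGE peaks of 270 and 461 bp, 1 at each end in each list. The peaks on its start side had midpoints at −616 and −644 bp from the nearest start, so they missed the 300-base window. Rps14, tied to an acquired deletion syndrome of the blood, had peaks of 472 and 271 bp. Rps29 had peaks of 530 and 648 bp whose midpoints were 165 bp apart, the largest offset among shared gene-end peaks. In Rps3a1 and Rps29, and at the far end of Rps19, the MGE peak was wider than its telencephalon partner.

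Among the 17 genes whose gene ends carried a peak of the telencephalon list alone, Rpl4, which lines the exit tunnel for the growing protein, had the widest, 1004 bp at chr9:64178663-64179666. That peak lay 101 bp past the other end of Rpl4 and nearer to an end of Snapc5. Rpl27 followed with a start peak of 556 bp at chr11:101441773-101442328. Others named by width were Rpl19 with 351 bp, Rps15a with 341 bp, Rpl34 with 339 bp, Rps9 with 309 bp, Rpl32 with 284 bp, Rps10 with 274 bp and Rpl7l1 with 261 bp. Narrower peaks, at 7 genes, were those of Rpl10, Rpl15, Rpl18, Rpl30, Rps4x, Rps15 and Rps26. Of the 17, 12 had no MGE peak within 10 kb, where 51.3% of all protein-coding genes had one. Neither this share nor the gap below was computed for all genes with such a telencephalon peak alone. They are therefore not read as a trait of the 17. At the 17, the number of bases between gene and nearest MGE peak ran from 1021 at Rpl19 to 246764 at Rpl10, with a median of 11480. The telencephalon peak of Rpl19 overlapped that MGE peak, which lay just past the limit.

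The gene-end peaks of the family were 46 in the telencephalon list, of which 25 (54.3%, 39.0 to 69.1) overlapped an MGE peak by at least 1 bp, against 51.9% at all protein-coding genes. Of 25 MGE peaks, 24 (96.0%, 79.6 to 99.9) overlapped a telencephalon peak, against 85.5%. The exception was the 244 bp peak of Rpl32l at chr10:20209533-20209776. Shared telencephalon peaks had a median width of 413 bp and unshared ones 246 bp. Over all 46 the median was 336 bp, against 305 bp at all protein-coding genes. The MGE peaks had a median of 369 bp, against 353 bp. The midpoints of overlapping peaks lay a median of 52 bp apart. An end of another protein-coding gene lay within 1 kb of 9 of the 46 telencephalon peaks and 4 of the 25 MGE peaks. In each list 2 peaks were nearer to such an end than to the family's gene.

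**Figure D4:**
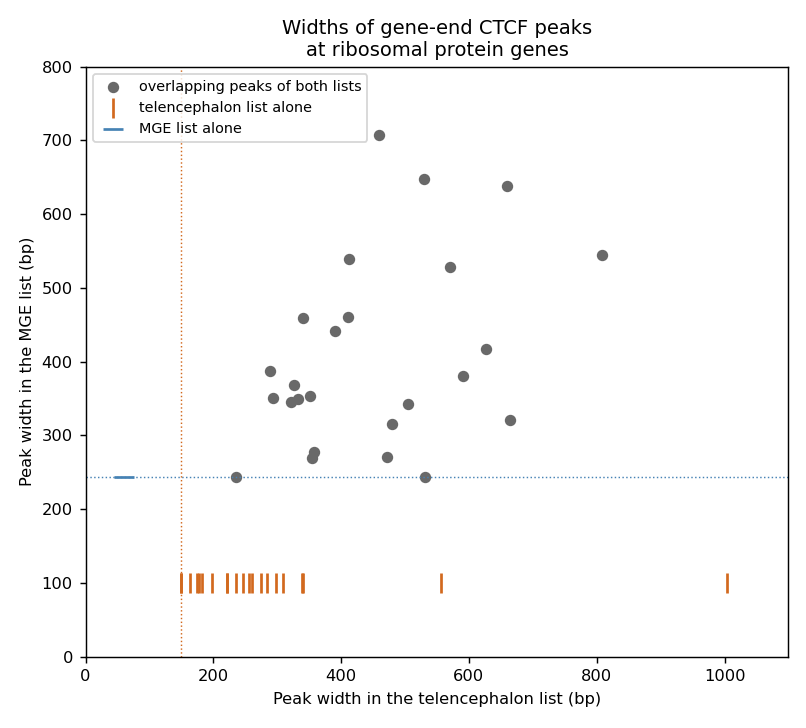
Each dot is a telencephalon gene-end peak of a ribosomal protein gene that overlaps an MGE peak, by its width in bp in the telencephalon list (x axis) and that of its partner in the MGE list (y axis). Orange ticks are telencephalon peaks with no partner and the blue tick is the MGE peak with none, placed at an arbitrary height or position because they have only 1 width, and dotted lines mark the smallest width of each list. The ticks without a partner overlap the narrower dots, with median widths of 246 bp for the ticks and 413 bp for the dots, and those of Rpl27 and Rpl4 sit at 556 and 1004 bp.

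Close to the limit of 1 kb, Rps10 and Rpl19 fell inside for the telencephalon list, at 842 and 960 bp, and Rpl14 and Rpl7 outside, at 1236 and 1251 bp. For the MGE list Rpl22 and Rpl13 fell inside at 712 and 766 bp, and Rpl19 and Rpl7 outside at 1022 and 1042 bp. At the limit of 10 kb, Rpl39 and Rps3 fell inside for the telencephalon list at 7614 and 8732 bp, and Rpl9 and Rpl23 outside at 10240 and 10655 bp. For the MGE list Rps13 and Rpl14 fell inside at 7534 and 7981 bp, and Rpl9 and Rpl18 outside at 10168 and 10227 bp.

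The 10 genes with no peak of either list within 10 kb were Rpl9, Rpl10l, Rpl23, Rpl31, Rpl35a, Rpl39l, Rps6, Rps7, Rps18 and Rps27a. The testis paralogue Rpl39l was the farthest, with 81137 bp to its nearest peak. Next were Rps7 with 41164 bp, Rps27a, which is made as a fusion with ubiquitin, with 31589 bp, and Rps6, the substrate of the S6 kinases, with 27610 bp. The testis retrogene Rpl10l followed with 24910 bp. Its X-linked parent Rpl10 had a telencephalon peak of 256 bp over its start and none in the MGE list. Of the 7 paralogues, 1 had a gene-end peak in each list, Rpl7l1 in the telencephalon and Rpl32l in the MGE list. That is 14.3% in each list, against 19.3% and 12.1% of all protein-coding genes. None had a peak over its promoter window, against 9.17% and 5.23% of all genes with a start. These 7 genes are too few to be set apart from either share. Without the paralogues the gene-end counts were 35 and 19 of 73.

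Of the 80 genes, 28 held a snoRNA gene inside, 55 snoRNA genes in all. Gene-end peaks were found at 12 and 7 of the 28 hosts and at 24 and 13 of the 52 others, in the telencephalon and MGE lists (19.3% and 12.1% of all protein-coding genes). Within 10 kb the counts were 26 and 20 of 28 hosts against 42 and 32 of 52 others (61.3% and 51.3% of all protein-coding genes). 

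Beside the CTCF core, the promoter windows were searched for the letters of other factors on both strands. The YY1 letters AAGATGGC were found in 8 of 73 windows (11.0%; 3.05% of all protein-coding windows), 3 of them overlapping windows of Rpl35a that share 1 match. The ETS letters CCGGAAG were found in 25 (34.2%; 11.6%), the GC box GGGCGG in 42 (57.5%; 46.2%), the TATA letters TATAAA in 7 (9.59%; 12.6%) and the E-box CACGTG, which reads the same on both strands, in 8 (11.0%; 7.84%). Overlapping windows of the same gene shared matches here too. This held for the E-box in Rpl19 and Rpl34, the ETS letters in Rps21, and the GC box in Rpl34, Rpl35a, Rps19 and Rps21. ETS letters were in 5 of 10 windows under peaks of both lists, 2 of 8 under a telencephalon peak alone and 18 of 55 under none. Over all protein-coding windows the shares of these classes were 21.1%, 21.5% and 10.7%. The GC content was 57.0% in the median member window and 56.3% over all, and the ratio of observed to expected CpG was 0.861 and 0.567. A match is a description of letters and not a bound site.

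A start at a C followed by at least 4 pyrimidines on the gene's strand was found in 13 of 73 windows (17.8%), against 2.21% of all protein-coding windows. Such a run lying wholly within 10 bases of the start was found in 37 (50.7%; 26.9%). This search was added after the first tables were seen. Shown are 15 bases before and 15 from the start, with the tract in capitals, for 3 genes with a peak over the window and 3 without.
Rpl38 (start chr11:114668580, + strand; peaks of both lists): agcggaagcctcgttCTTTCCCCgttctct
Rpl15 (start chr14:18270986, − strand; telencephalon peak): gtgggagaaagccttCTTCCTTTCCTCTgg
Rps15a (start chr7:118116147, − strand; telencephalon peak): ctctctttctgccatCTTCCCTCgccggtg
Rpl35 (start chr2:39005131, − strand; no peak over the window): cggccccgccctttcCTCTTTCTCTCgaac
Rps6 (start chr4:86857367, − strand; no peak over the window): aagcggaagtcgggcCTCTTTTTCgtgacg
Rps18 (start chr17:33955665, − strand; no peak over the window): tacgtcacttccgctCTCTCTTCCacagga
The tract at the start was present in 1 of 10 windows under peaks of both lists, 2 of 8 under a telencephalon peak alone and 10 of 55 under none. Over all protein-coding windows the shares were 1.97%, 2.22% and 2.22%.

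**Figure D5:**
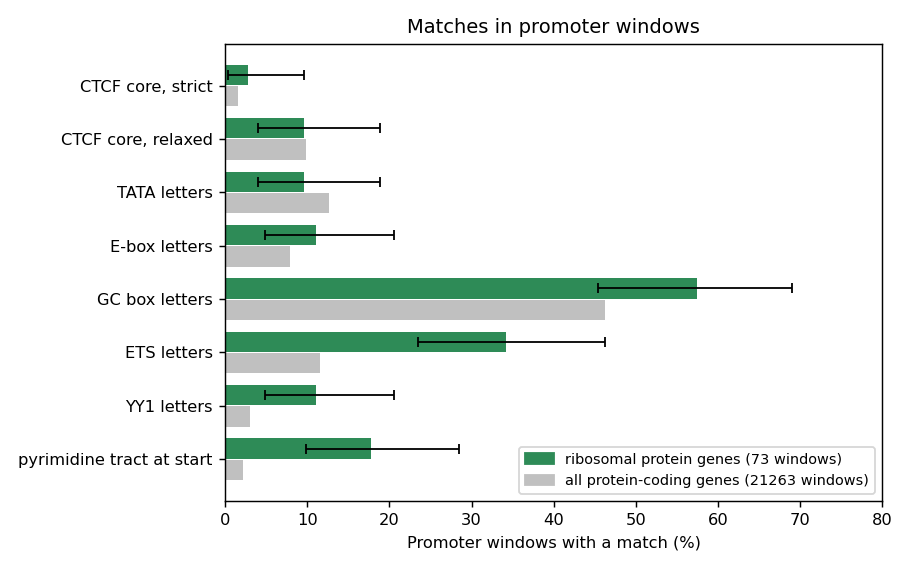
Bars give the percent of promoter windows with a match, for 73 windows of ribosomal protein genes (green, with exact 95% intervals that treat overlapping windows as independent) and 21263 windows of all protein-coding genes (grey). The pyrimidine tract was read on the gene's strand, starting at the start base, and the others on both strands. The green bar exceeds the grey by most for the ETS letters, 34.2% against 11.6%, and falls near it for both CTCF cores.

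Other genes of the ribosome and of translation were taken from lists chosen with earlier results known. Of 8 ribosomal proteins outside the symbol rule, only Rplp0, a stalk protein, carried gene-end peaks, and its peaks in the telencephalon and MGE lists were 534 and 413 bp wide. Gene-end peaks were found at 5 and 2 of 7 elongation factors, at 6 and 5 of 30 initiation factors and poly(A) binding proteins, at 13 and 9 of 39 ribosome biogenesis genes, and at 5 and 2 of 15 regulators, in the telencephalon and MGE lists, where the shares of all protein-coding genes were 19.3% and 12.1%. The counts of initiation factors were near those shares. Genes with one in both lists were Eef1a1 and Eef1b2 among the elongation factors, and Eif2s1, Eif3f, Eif3g and Eif5a among the initiation factors. Among the biogenesis genes they were Bysl, Nolc1, Nop10, Nop14, Polr1d, Rrp1, Rrp9 and Utp3, and among the regulators Mycl and Mycn. Mycn, the MYC family gene of neural progenitors, had peaks of 359 and 398 bp.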

How the data were processed

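CTCF was mapped by ChIP-seq in the telencephalon and the MGE of mouse embryos, with 1 CTCF library and 1 input per tissue. The submitters' processing notes name Bowtie2 2.3.2, MACS2 2.1.1.20160309 and the mm10 build. Neither the labels nor the headers state the peak threshold, the control or the filters. Track names in the list headers carry p001 (telencephalon) and p01 (MGE), whose meaning is not stated. Each file deposited by the authors gives the start and end of every peak, with no score, height or read count, so the depth per library is unknown. The inputs and 93 telencephalon and 85 MGE peaks on other sequences were not used here.

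Genes, starts and promoter sequences came from RefSeq tables of GRCm38.p6. Peaks were joined to genes with Python 3.11.15, pandas 2.3.3 and numpy 2.4.6. An overlap of 1 bp counted, with windows of 1 kb at gene ends and 10 kb around genes. Exact Clopper-Pearson intervals came from scipy 1.17.1 and figures from matplotlib 3.10.9. The look-up was tested on simulated data with planted peaks.

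Named genes were those with gene-end peaks in both lists, the 10 widest of the telencephalon list alone, those of the MGE list alone, the 5 farthest from a peak, the 3 with most peaks, those nearest the limits, and genes of related lists with gene-end peaks in both lists. Ties were broken by symbol. The genes and lists were chosen with earlier results of these data known. Other windows, midpoints, wider peaks, an equal number of peaks, other overlaps and other backgrounds were tried. The count with 1 of each pair of adjacent genes, the TOP search and the core with 1 letter changed were chosen after seeing the data. Single values of some genes of the family are not reported here, although the genes are in the counts.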

Additional observations from a re-analysis of the deposited data

How the results depend on the processing

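Of 53 alternative values computed, 40 stayed within 1.5 times the main count, or within its interval for a share, and 13 moved. With gene ends of 5 kb, 55 genes had a peak in the telencephalon list and 37 in the MGE list, against 40.9% and 29.6% of all protein-coding genes. In the gene body alone the counts were 27 and 14, against 68 and 52 within 10 kb. The shares of all protein-coding genes were 39.1% and 31.4% in the gene body, and 61.3% and 51.3% within 10 kb. With the wider 50% of peaks, 13 of 61 genes kept a start peak in the telencephalon list. The same share over all protein-coding genes was not computed, so this count is not read as a trait of the family. The share of all protein-coding genes with a gene-end peak was 20.3% and 12.6% without olfactory receptor genes, and 16.3% and 10.8% among genes no longer than the longest ribosomal protein gene. Within 10 kb these shares were 64.1% and 53.2%, and 45.3% and 35.9%. Leaving out 1 of each pair of adjacent genes, chosen after seeing the data, gave 35 of 78 and 20 of 78 gene-end counts. No paired analysis was possible because each tissue had 1 CTCF library and no test was made. Without read counts or scores, weak peaks could not be told from strong ones, and genes with no peak may hold binding below the calling limit.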

Other observations

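Rpl3l, the muscle paralogue of Rpl3, and Rps2 are 5898 bp apart on chromosome 17 and shared 1 peak in each list. In both lists that peak covered an end of Ndufb10 and was nearer to it than to Rpl3l or Rps2. Rps12, host of 3 snoRNA genes, had an MGE peak of 322 bp within 10 kb and no telencephalon peak nearer than 24737 bp. The 2 telencephalon peaks of Rps26 were narrow, 150 and 177 bp, and the first had the smallest width of that list.

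Fbl, the methyltransferase guided by box C/D snoRNAs, had a gene-end peak of 519 bp in the telencephalon list without an MGE partner, and Ncl, the nucleolar protein nucleolin, had 1 of 405 bp in the MGE list alone. Myc had a peak of 349 bp in the telencephalon list alone, while Mycl (465 and 312 bp) and Mycn had peaks in both lists. These genes were chosen after their values were seen, apart from Mycl and Mycn.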
